A study of Mus musculus with 2 samples.

Results

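The genes described here are the spliceosomal small nuclear RNA (snRNA) genes that were expressed in the adrenal gland of young mice. They are the genes annotated with the type snRNA chosen by their level in the gene tables, which had to be at least 1 TPM (transcripts per 1e6 transcripts, after division by length) in both libraries. This rule found 41 genes of 1383 annotated snRNA genes, among 55536 annotated genes and 14179 genes of any type at this level. Because these TPM values chose the genes, their levels are given as a description with no test.

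Total RNA-seq was run on adrenal gland tissue from B6CASTF1/J female mice, F1 hybrids of C57BL/6J and CAST/EiJ, at 10 days of age. There was 1 group with 2 libraries, each from 300 ng of total RNA with ribosomal RNA reduced, a directional kit and ERCC spike-in RNA. The tissue samples are labelled with separate females, but the library descriptions repeat 1 female and 1 donor. It was therefore not settled that n = 2 stands for 2 animals, and every SD and p-value below may measure technical spread only. There was no treatment and no second tissue, so the only contrast was replicate 1 against replicate 2. The libraries stood apart in marker genes, with liver and skeletal muscle markers higher in replicate 1 and kidney tubule markers higher in replicate 2.

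The spliceosome removes introns from precursor RNAs and is built around small RNAs, each held in a particle with proteins. U1 pairs with the 5′ splice site and U2 with the branch site, and the U4, U5 and U6 RNAs then join as one tri-snRNP to form the catalytic core. A minor spliceosome serves a rare class of introns and uses U11, U12, U4atac and U6atac in place of U1, U2, U4 and U6, while U5 is shared. All of them except U6 and U6atac carry a ring of Sm proteins on a uridine-rich Sm site. In mammals the major snRNAs come from many gene copies, of which a large number are pseudogenes. Mouse U1 exists as U1a and as U1b, a form known from embryonic and early postnatal tissue.

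The genes were sorted by U-type from their symbol, or otherwise by their closest match among 10 snRNA genes with a U-type symbol, which placed 841 of the 1383 annotated genes. The 41 expressed genes comprised 19 U1 copies (11 U1a and 8 U1b), 12 U2 copies, and 1 gene each of U5, U11 and U12. The other 7 were given no U-type. No symbol in the annotation begins with Rnu4 or Rnu6atac, so a U4, U4atac or U6atac gene could not be named in this way. Genes of these types may therefore be among the 7, which was not tested. Sequences are shown of a gene with a symbol for each of U1a, U1b, U2, U11 and U12, since the copies are told apart by a few bases. Those of Gm24265 and Gm25541 are shown for the genes without a U-type. For U1b and U2 the gene shown was not the one with the highest TPM. The sequences are the annotated transcripts of GENCODE M21 on mm10, read 5′ to 3′ as DNA letters.

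Capitals mark the stretch that pairs with the splice site or branch site (ACTTACCTG in U1, GTAGTA in U2, GTAAGGAA in U12) and the Sm-type site (ATTTGTGG, ATTTTTG or ATTTTTTG). No such letters are marked in Gm25541, which held none of the motifs searched.

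Rnu1a1 (U1a, chr11:87422867-87423030, plus strand): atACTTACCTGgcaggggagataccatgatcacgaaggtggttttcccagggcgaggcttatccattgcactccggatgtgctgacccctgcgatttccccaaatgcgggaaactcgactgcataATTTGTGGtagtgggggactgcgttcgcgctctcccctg

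Rnu1b6 (U1b, chr3:96460024-96460189, minus strand): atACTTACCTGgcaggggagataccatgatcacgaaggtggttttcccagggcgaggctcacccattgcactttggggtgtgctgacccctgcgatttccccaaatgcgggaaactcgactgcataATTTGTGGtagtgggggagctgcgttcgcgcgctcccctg

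Rnu2-10 (U2, chr11:101658238-101658428, plus strand): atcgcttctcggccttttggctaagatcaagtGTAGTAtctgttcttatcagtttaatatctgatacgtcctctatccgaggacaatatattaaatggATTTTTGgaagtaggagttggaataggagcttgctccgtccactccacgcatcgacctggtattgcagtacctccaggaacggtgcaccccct

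Rnu11 (U11, chr4:132270080-132270213, minus strand): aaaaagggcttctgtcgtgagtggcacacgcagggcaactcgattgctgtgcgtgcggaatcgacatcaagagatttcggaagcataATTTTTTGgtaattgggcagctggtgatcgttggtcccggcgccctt

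Rnu12 (U12, chr15:83149644-83149794, plus strand): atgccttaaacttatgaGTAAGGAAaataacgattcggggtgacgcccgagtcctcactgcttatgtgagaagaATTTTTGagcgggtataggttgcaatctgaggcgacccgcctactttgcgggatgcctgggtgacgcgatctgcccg

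Gm24265 (no U-type, chr5:115489459-115489599, plus strand): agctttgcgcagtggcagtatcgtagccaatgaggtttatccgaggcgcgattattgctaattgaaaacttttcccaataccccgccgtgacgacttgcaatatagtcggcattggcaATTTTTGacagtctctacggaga

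Gm25541 (no U-type, chr2:27539805-27539930, minus strand): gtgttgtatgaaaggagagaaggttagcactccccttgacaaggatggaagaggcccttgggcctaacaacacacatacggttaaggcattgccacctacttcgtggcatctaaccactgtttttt

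The 41 genes summed to 45837 TPM in replicate 1 and 43441 TPM in replicate 2, a mean of 44639 ± 1694 TPM (SD, n = 2). That was 4.58% and 4.34% of all TPM but only 0.347% and 0.329% of the counts in replicates 1 and 2. TPM divides by an effective length, which was 99 bases shorter than the transcript, and these transcripts are short to begin with. U2 held 61.4% and 63.7% of the summed TPM in replicates 1 and 2, and U1 held 29.3% and 27.6%. The genes without a U-type held 9.18% and 8.61%. U5, U11 and U12 together made up the small remainder. The expressed genes took nearly all snRNA signal: only 46.06 counts in replicate 1 and 31.99 in replicate 2 fell on the 38 other snRNA genes with any count.

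**Figure D1:**
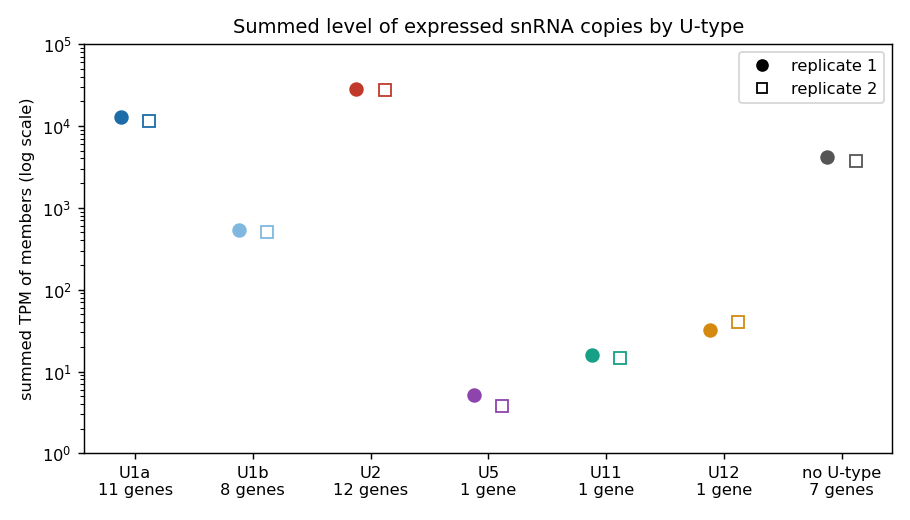
Summed TPM (log scale) of the expressed snRNA genes of each U-type, with replicate 1 as filled circles and replicate 2 as open squares. U2 lies highest (28135 and 27667 TPM), above U1a (12906 and 11466 TPM) and U1b (534 and 511 TPM), and U5, U11 and U12 lie below 100 TPM in both libraries.

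U2 was the most abundant U-type on the TPM scale. Its 12 copies summed to 28135 TPM in replicate 1 and 27667 TPM in replicate 2 (27901 ± 331 TPM, SD, n = 2), from 87128 and 79572 counts. Most of this lay in 2 sequence groups. Rnu2-10 and its identical copies Gm23849, Gm23971 and Gm24950 each had 3465 TPM in replicate 1 and 3380 TPM in replicate 2. Gm23444 and Gm23472, which share a sequence that differs from Rnu2-10 by G109C (counted from the 5′ end), each had 4914 TPM and 4916 TPM. The 2 groups summed to 13861 and 9828 TPM in replicate 1 and to 13521 and 9831 TPM in replicate 2.

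The remaining U2 copies each had a sequence of their own and covered a wide range of levels. Gm24497 (G109C and C186A) had 2288 TPM in replicate 1 and 2207 TPM in replicate 2. Gm25939 (T69C, C78T and G109C) had 1677 TPM and 1678 TPM. The G109C change was thus carried by all 4 of these highly expressed variants and by the weaker Gm25360, at 238 TPM in replicate 1 and 215 TPM in replicate 2. Gm26316, which differs from Rnu2-10 by C170T alone, had 114 TPM and 121 TPM. Gm22973, with 9 substitutions, had 118 TPM and 86.6 TPM, and Gm25813 had 10.7 TPM and 6.96 TPM.

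U1 was dominated by U1a. The 19 U1 copies summed to 13439 TPM in replicate 1 and 11977 TPM in replicate 2 (12708 ± 1034 TPM, SD, n = 2), from 29427 and 24357 counts. The 11 U1a copies made up 12906 TPM in replicate 1 and 11466 TPM in replicate 2. Of these, Rnu1a1 and the identical Gm22068, Gm22317, Gm22634, Gm23804, Gm25679 and Gm26444 were each listed at 1428 TPM and 1225 TPM, a sum of 9995 TPM and 8578 TPM. Gm22513 (T60C against Rnu1a1) had 1231 TPM in replicate 1 and 1128 TPM in replicate 2, and Gm24305 (A26G) had 832 TPM and 705 TPM. Gm23238, a copy with G12A, A23T, C153T and C160A, had 815 TPM in replicate 1 and 1017 TPM in replicate 2. Gm26244 was far lower, at 32.9 TPM and 38.6 TPM, with a posterior SD above its own count in both libraries.

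U1b was a small part of U1 in both libraries. Its 8 copies summed to 534 TPM in replicate 1 and 511 TPM in replicate 2 (522 ± 16.3 TPM, SD, n = 2), which was 3.97% and 4.27% of the U1 level. The identical pair Gm22614 and Gm25890 was the strongest, at 193 TPM each in replicate 1 and 176 TPM each in replicate 2. Rnu1b6, Gm26232 and Gm24830 had 38.9 TPM and 41.5 TPM each. Rnu1b1 and Rnu1b2 had 11.6 TPM and 6.00 TPM each, and Gm22042 had 7.18 TPM in replicate 1 and 23.1 TPM in replicate 2.

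The level of U2 was about 2 times that of U1 per effective length. The ratio of U2 to U1 was 2.09 in replicate 1 and 2.31 in replicate 2 on the TPM scale (2.20 ± 0.153, SD, n = 2). It was 2.96 and 3.27 in counts, and 2.54 and 2.81 in counts per full length. How far U2 exceeded U1 therefore depended on the length by which counts were divided, while the order was the same on these scales. All of these scales start from the same counts. Whether U1 and U2 were recovered equally in the libraries was not tested, so the order in the tissue is not settled. Since this was bulk tissue, these ratios are over all cells together. For a change between the libraries, a difference in the number of cells and a difference in RNA per cell cannot be told apart.

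The minor spliceosome RNAs U11 and U12 were present at low levels. Levels of U4atac and U6atac are not given, because no gene was named as such. The genes without a U-type were not matched to these RNAs, so some of them may belong to these types. Rnu12, the U12 gene, had 32.0 TPM in replicate 1 and 40.0 TPM in replicate 2, from 56 and 65 counts. Rnu11, the U11 gene, had 16.1 TPM and 14.6 TPM, from 19 and 16 counts. The deposited credibility intervals of Rnu12 (23.8 to 40.3 TPM in replicate 1 and 30.5 to 49.5 TPM in replicate 2) overlapped each other, and so did those of Rnu11. On the TPM scale, U1 stood 833 times above U11 in replicate 1 and 819 times in replicate 2. U2 stood 879 and 692 times above U12. In counts these ratios were larger, at 1549 and 1522 for U1 over U11 and 1556 and 1224 for U2 over U12. A total of 3 other U12 copies and 4 other U11 copies in the annotation had no count.

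U5 and U6 each had only a few counts, and no U6 copy reached 1 TPM in both libraries. The expressed U5 gene, Gm25099, had 5.24 TPM in replicate 1 and 3.76 TPM in replicate 2, which came from 3 and 2 counts. Rnu5g, the U5 gene with a symbol, had 0 counts in both libraries. At 116 bases its effective length was 17 bases, so that 0 counts allow up to 5.24 TPM in replicate 1 and 5.64 TPM in replicate 2. U6 is a shorter RNA, transcribed by RNA polymerase III, and its 657 annotated copies together had 3 counts in each library. Rnu6, at 107 bases, had an effective length of 8 bases and 0 counts, which allow up to 11.14 TPM and 11.996 TPM. All 56 copies of U7, which acts in histone RNA processing and not in splicing, had an effective length of 0 and no value. These limits bound the listed levels of Rnu5g and Rnu6 and cover counting error only. Gm25541, a gene of 126 bases with an effective length of 27 bases, had 95 and 73 counts.

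The 7 genes without a U-type fell into a high and a low set. Gm24265 had 2342 TPM in replicate 1 and 2083 TPM in replicate 2, from 3310 and 2735 counts. Gm24407 is also 141 bases long, differs from Gm24265 by G88A and C99A, and had 1754 TPM and 1555 TPM. Gm25541, 126 bases long, had 105 TPM and 86.5 TPM from 95 and 73 counts. Gm25135, Gm23497, Gm22710 and Gm24041 had at most 4.73 TPM in replicate 1 and at most 6.24 TPM in replicate 2, from 7 counts or fewer. Gm23497 and Gm24041 matched Rnu1a1 at 79.0% over 81 bases and 77.6% over 147 bases, just below the identity of 80% required to name a U-type. The other 5 had no match to a U-type symbol.

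**Figure D2:**
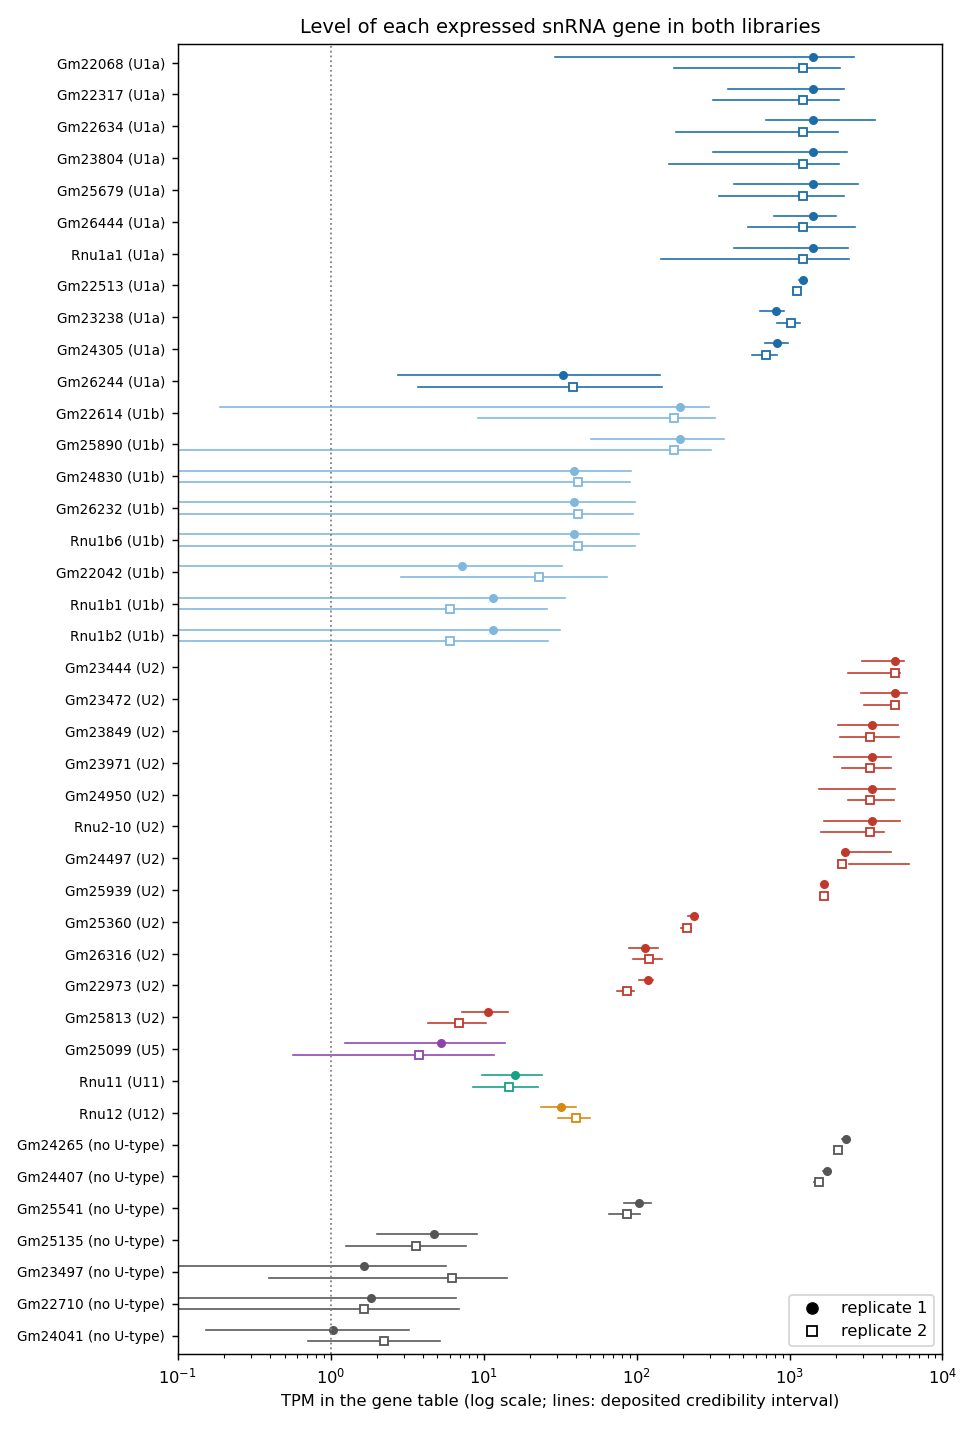
TPM (log scale) of each of the 41 expressed snRNA genes in replicate 1 (filled circles) and replicate 2 (open squares), with lines for the deposited credibility interval, drawn from 0.1 TPM where it reaches lower, and a dotted line at 1 TPM. U2 copies and U1a copies hold most of the 18 genes that reach 1000 TPM in each library, and identical copies have equal TPM but wide intervals.

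The 3 genes just inside the limit were Gm24041 at 1.04 TPM in replicate 1 and 2.24 TPM in replicate 2, Gm23497 at 1.65 and 6.24 TPM, and Gm22710 at 1.83 and 1.66 TPM. Just outside it were Gm25630 at 0.94 and 1.02 TPM, the U1 copy Gm26121 at 0.94 and 3.05 TPM, and Gm24959 at 0.63 and 0.68 TPM. Each of these rested on at most 6.05 counts per library. For 913 annotated snRNA genes 1 count alone was worth at least 1 TPM in both libraries, so the limit is not the same number of reads for short and long genes. Of the 41 genes, 24 had at least 100 TPM in both libraries and 5 had less than 10 TPM in both.

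Reads could not be placed on single copies where sequences were the same. The 41 genes had 27 distinct sequences, and 20 of them shared their whole sequence with another member, in 6 groups. Within all 6 groups the deposited TPM was equal in every copy in both libraries. Rnu1a1, for example, was listed at 3124 counts in replicate 1 with a posterior SD of 37.8% of that count, and at 2490 counts in replicate 2 with a posterior SD of 50.8%. Copies a single base away from Rnu1a1 varied widely in this respect. Gm22513 had 2694 and 2291 counts with posterior SDs of 0.0739% and 0.0899%, Gm24305 had posterior SDs of 8.29% and 9.41%, and Gm26244 had posterior SDs of 123% and 108%. In each library 23 of the 41 genes had a posterior SD above 20% of the count, and 13 had one of at most 1%. Gm24497 was the only gene whose TPM lay outside its own interval, in both libraries: 2288 TPM against 2363 to 4610 TPM in replicate 1, and 2207 TPM against 2436 to 6047 TPM in replicate 2. Its share of the U2 level is therefore uncertain, as is that of every copy in a shared sequence group.

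**Figure D3:**
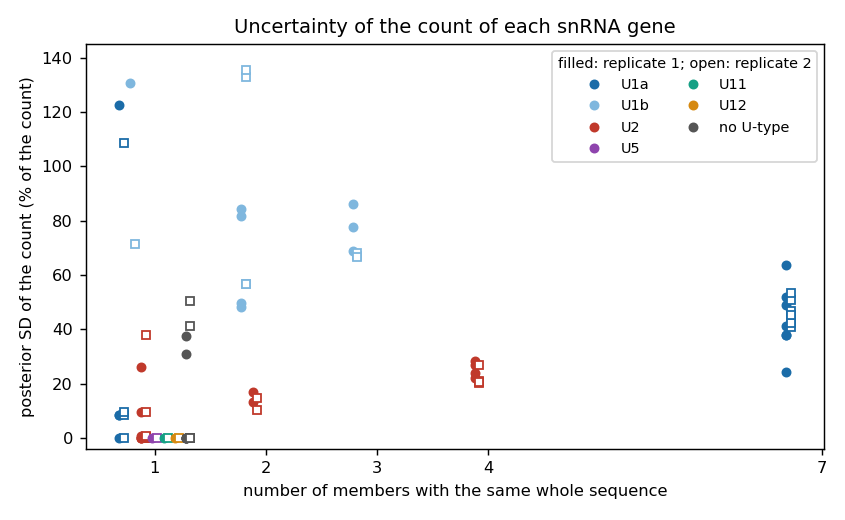
Posterior SD of the count as a percent of the count (vertical axis) against the number of expressed snRNA genes with the same whole sequence (horizontal axis), for replicate 1 (filled circles) and replicate 2 (open squares). Copies in groups of 3, 4 and 7 lie above 20% in both libraries, while genes with a sequence of their own range between 0 and 131%.

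The expressed copies were clustered in the genome. With gaps of at most 200000 bases, 27 of the 41 genes lay in 6 clusters, and the other 14 stood alone. A U2 cluster at chr11:101604850-101658428 held 5 copies, Rnu2-10 among them, with 13975 TPM in replicate 1 and 13643 TPM in replicate 2. Another, at chr1:72226240-72255198, held 4 U2 copies with 9117 TPM and 9015 TPM. U1a had 7 copies at chr12:54696782-54738622 with 9202 TPM and 7960 TPM, and 2 further identical copies at chr11:87422867-87426879 inside an intron of Tex14. U1b had 7 of its 8 copies at chr3:96328425-96488893, with 527 TPM in replicate 1 and 488 TPM in replicate 2. Gm24265 and Gm24407 lay within a span of 936 bases at chr5:115489459-115490394. The split of TPM among clusters that share a sequence follows the equal split among identical copies and is not a measurement of each locus.

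Most members stood clear of other genes. A total of 26 overlapped no other annotated gene, and 15 overlapped at least 1, mostly within an intron. Gm23472, Gm24497 and Gm25939 lay in an intron of D230017M19Rik on the same strand, and Gm23849 in an intron of Rdm1. Gm23238 lay opposite an exon of AC134906.1 and Rnu11 opposite an exon of Gm28872. Gm23497 lay within an exon of Tfcp2l1 on the same strand, and Gm22710 within an exon of 2900060B14Rik on the same strand. The 1.72 and 6.05 counts of Gm23497 and the 1.6 and 1.35 counts of Gm22710 cannot be told apart from reads of those genes. None of the sources at hand says if counting used the strand, and values of all 15 are uncertain in this respect.

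Expressed copies were closer to the named sequences than the copies that were not expressed. The 19 U1 members had a median identity of 100% to the nearest U1 gene with a symbol (lowest 97.6%), against a median of 84.8% (highest 99.4%) in the 68 other U1 copies. For U2 the medians were 99.5% in the 12 members and 90.9% in the 9 others. The named genes Rnu1a1, Rnu1b1, Rnu1b2, Rnu1b6 and Rnu2-10 are members themselves and stood at 100%. Their identical copies did so as well, so the medians of the members were in part set by the choice of references. None of the 68 or the 9 shared its whole sequence with a member. Since identical copies had equal TPM in the gene tables, such a copy would have entered the list as well. Among the U1 copies outside the list, Gm24924 was 99.4% identical to Rnu1a1 and had 0 counts in both libraries. Gm23686, at 97.6% identity, had 1 count in replicate 1 and 0 in replicate 2.

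The functional letters followed the same line. The motif ACTTACCTG stood at base 3 in 19 of 19 U1 members, against 25 of 68 U1 copies outside the list (36.8%), and was present in 3.98% of all annotated snRNA genes. GTAGTA was present in 12 of 12 U2 members against 5 of 9 other U2 copies (55.6%), and in 3.69% of all. GTAAGGAA was present in Rnu12 and in 0.651% of all. One of the 3 Sm-type sites was present in 38 of 41 members (92.7%) against 96 of 1342 other snRNA genes (7.15%), and in 9.69% of all; the 3 members without one had no U-type. The 1342 others include all 657 annotated U6 copies, a type that carries no Sm ring. The members and the others thus differ in U-type, and this contrast is not one between copies of the same U-type. All motifs were searched on the RNA strand only. A match is a match of letters and not a binding site, and this count has no test because copies of one U-type share their sequence.

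For each gene with a summed count of at least 20, counts of replicate 1 and replicate 2 were compared by an exact two-sided binomial test with library sizes scaled by TMM. P-values were adjusted by Benjamini-Hochberg over 18883 genes, and a gene was called at an adjusted p below 0.05 and a difference of at least 2-fold. Of the 41 members 36 could be tested, and 1 was called, against 6.85% of all tested genes (4.11% higher in replicate 1 and 2.74% higher in replicate 2). Since members had to reach 1 TPM in both libraries, the nearer comparison is with the 14090 tested genes that also did, of which 3.10% were called, close to the 2.78% of members. The median log2 ratio of replicate 1 over replicate 2 was 0.09 over the tested members, with 21 above 0 and 15 below, and 0.01 over all tested genes. The test covers counting error only and compares these libraries.

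The called gene was the U1b copy Gm22042, with 15.96 counts in replicate 1 and 47.69 in replicate 2, a log2 ratio of -1.71 (exact binomial test, adjusted p = 6.25e-05). Its posterior SD was 131% of the count in replicate 1 and 71.5% in replicate 2, and its credibility intervals overlapped, at 0.0165 to 32.4 TPM and 2.91 to 64.3 TPM. The summed U1b level showed no such difference, with a fold of 1.01 (95% interval 0.928 to 1.10). When called genes also had to have credibility intervals that did not overlap, 0 members were called, against 5.33% of all tested genes. Without a limit on the fold, 15 of the 36 passed the adjusted p, with 11 higher in replicate 1 and 4 higher in replicate 2, which is 41.7%, against 26.5% of all tested genes (12.5% higher in replicate 1 and 14.0% higher in replicate 2) and 28.1% of those at 1 TPM in both libraries.

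Those 15 genes are not independent, since 7 of the 11 higher in replicate 1 were the identical Rnu1a1 copies, each at a log2 ratio of 0.17 (exact binomial test, adjusted p = 7.58e-05). Counted by distinct sequence, 8 of 22 tested sequences passed (36.4%), 5 higher in replicate 1 and 3 higher in replicate 2. Within U1a, copies moved in different directions. Gm23238 was higher in replicate 2, with 1783 counts in replicate 1 and 2066 in replicate 2 (log2 ratio -0.37, exact binomial test, adjusted p = 4.57e-14). Gm24305 was higher in replicate 1, with 1819 and 1433 counts (log2 ratio 0.19, exact binomial test, adjusted p = 0.0014). The credibility intervals of each of these overlapped between libraries. A total of 4 genes had TPM intervals that did not overlap between libraries, all with the higher TPM in replicate 1, against 15.5% of all tested genes (9.19% with the higher TPM in replicate 1). They were Gm24265, Gm24407, Gm22973 and Gm22513, of which Gm22513 did not pass the exact binomial test on scaled counts (adjusted p = 0.165, fold 0.998 to 1.12).

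**Figure D4:**
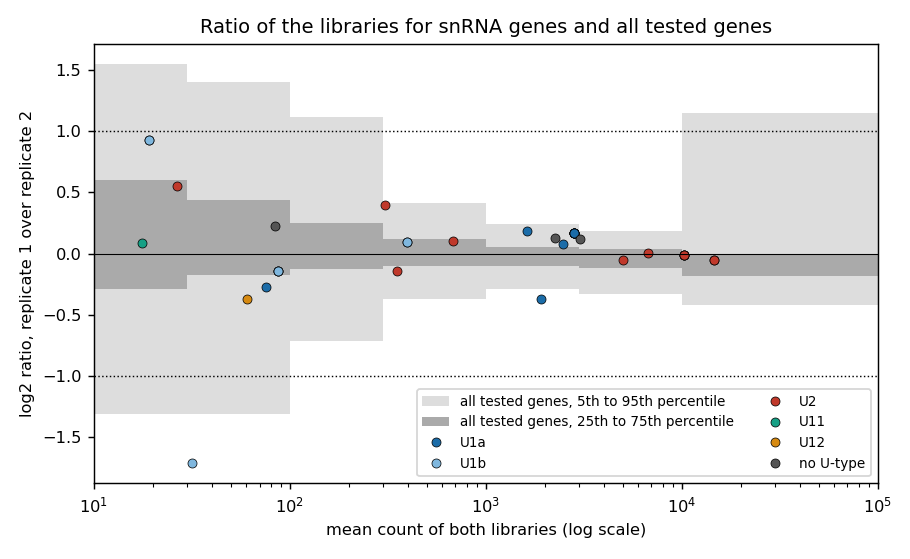
Log2 ratio of replicate 1 over replicate 2 (vertical axis) against the mean count of both libraries (log scale) for the 36 tested snRNA genes, coloured by U-type, over the percentile bands of all 18883 tested genes. Gm22042, at -1.71, is the only snRNA gene beyond the dotted lines at 2-fold; identical copies lie on the same point.

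Sums over copies do not depend on how reads were split among them. The summed U1 count was higher in replicate 1 by a log2 ratio of 0.12 (fold 1.08, 95% interval 1.07 to 1.10, exact binomial test, adjusted p = 1.8e-19). The summed U2 count was lower in replicate 1, by a log2 ratio of -0.03 (fold 0.983, 95% interval 0.973 to 0.992, exact binomial test, adjusted p = 0.00227). The U2 direction turned to 0.04 (log2) when libraries were scaled by total counts. Set against each other without any scaling, U1 relative to U2 was 1.10 times higher in replicate 1 than in replicate 2 (95% interval 1.08 to 1.13, Fisher's exact test, two-sided, p = 4.81e-23). All these differences lie far below 2-fold and rest on counting error alone. U12 had a log2 ratio of -0.37 (fold 0.773, 95% interval 0.531 to 1.12) and U11 one of 0.09 (fold 1.07, 95% interval 0.519 to 2.22), and neither passed the test (exact binomial test, adjusted p = 0.357 and 0.948). The U11 interval includes differences of 2-fold in the direction of replicate 1, while the U12 interval excludes any excess in replicate 1 above 1.12-fold. The sum of all 41 genes had a fold of 1.01 (95% interval 1.00 to 1.02, exact binomial test, adjusted p = 0.0597).

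The other quantification deposited for the same libraries listed every snRNA gene at 0. None of the 1383 annotated snRNA genes was above 0 in either library, including the U2 copies that lead the gene table. The same held for every other short gene: all 228 genes at 1 TPM or more in the gene table whose longest transcript was at most 250 bases were listed at 0, and the shortest gene above 0 was 265 bases long. The snRNA members are 116 to 191 bases long. Of 107 expressed small nucleolar and Cajal body RNA genes, which guide the modification of ribosomal and spliceosomal RNAs, 3 were above 0. In genes of over 250 and up to 300 bases 8 of 40 were above 0 (20%), in longer ones of up to 400 bases 53.9%, and in those over 2000 bases 100%. Rn7sk, a longer nuclear RNA of 331 bases, had 44517 TPM in replicate 1 and 42988 TPM in replicate 2 in the gene table, but 9.14 TPM and 1.55 TPM in the other quantification. The cause of the difference was not tested, and every snRNA level here rests on the gene table alone.

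**Figure D5:**
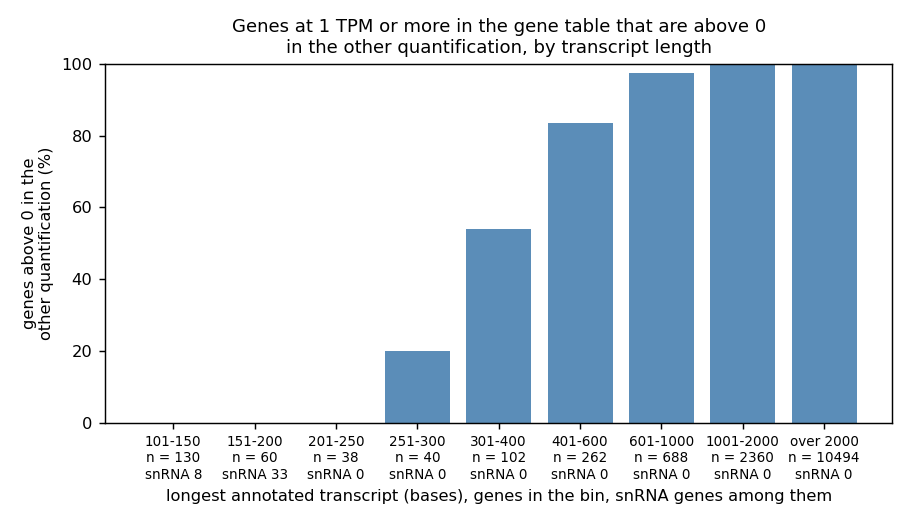
Percent of genes at 1 TPM or more in the gene table of both libraries that were above 0 in the other quantification, by the length of the longest annotated transcript, with the number of genes and of snRNA genes in each bin. The bars stand at 0% up to 250 bases, where all 41 snRNA genes lie, at 53.9% for the bin that ends at 400 bases and at 100% over 2000 bases.

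The protein genes of the same particles were nearly all detected. Of 109 genes in 7 lists of spliceosome and snRNP assembly proteins, 108 had at least 1 TPM in both libraries, and the median of the mean TPM over the 109 was 12.4. None was called higher in replicate 1, against 4.11% of all tested genes, and 1 was called higher in replicate 2, against 2.74%. Without a limit on the fold, 5 were higher in replicate 1 and 3 in replicate 2 (7.34%, against 26.5% of all tested genes). The median log2 ratio over the 109 was 0.02, against 0.01 over all tested genes.

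The Sm and LSm rings, which bind the Sm site and the U6 end, had 15 of 15 genes detected. Their highest genes were Snrpg at 77.6 TPM in replicate 1 and 74.2 TPM in replicate 2, Snrpb at 67.5 and 62.0 TPM, and Snrpe at 44.4 and 44.3 TPM. All 6 U1 proteins were detected, led by Snrnp70, which binds U1 directly, at 112 TPM and 94.2 TPM, ahead of Luc7l2 at 60.7 and 51.9 TPM and Snrpc at 31.3 and 32.5 TPM. With no limit on the fold, 3 of the 6 were higher in replicate 1 in the exact binomial test, against 12.5% of all tested genes: Snrnp70 (log2 ratio 0.15, adjusted p = 7.97e-06), Luc7l2 (0.12, adjusted p = 0.000188) and Luc7l3 (0.16, adjusted p = 0.00144). The other 3 did not pass, with log2 ratios of 0.02 for Luc7l, -0.03 for Snrpa and -0.10 for Snrpc. All 14 U2 proteins were detected, with Sf3b2 at 55.2 and 54.2 TPM, U2af2 at 53.1 and 48.8 TPM, and U2af1 at 49.7 and 46.1 TPM.

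All 17 proteins of the U4/U6 and U5 particles were detected while U5 and U6 RNA had only a few counts. Prpf8, at the catalytic core, had 42.8 TPM in replicate 1 and 43.4 TPM in replicate 2, Eftud2 had 28.72 and 25.04 TPM, and the helicase Snrnp200 had 23.4 and 24.3 TPM. The 12 minor spliceosome proteins were all detected at lower levels, with a list median of 8.17 TPM in replicate 1 and 6.89 TPM in replicate 2, and 3 of them at 10 TPM or more in both. These were Zcrb1 at 28.6 and 26.1 TPM, Scnm1 at 12.8 and 11.7 TPM, and Zmat5 at 11.9 and 10.5 TPM. The 26 genes for snRNA transcription and 3′ end processing were all detected, led by the Integrator subunits Ints4 at 18.6 and 19.1 TPM, Ints3 at 17.0 and 17.3 TPM, and Ints1 at 17.1 and 15.3 TPM.

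For snRNP assembly and transport 18 of 19 genes were detected, with Strap at 33.7 TPM in replicate 1 and 31.6 TPM in replicate 2, the export receptor Xpo1 at 23.1 and 23.0 TPM, and Clns1a at 19.5 and 17.5 TPM. The exception was Gemin4, a subunit of the SMN complex that loads Sm proteins. In the gene table it was listed at 0 counts in replicate 1 and at 200.67 counts (1.87 TPM) in replicate 2, and this was the called protein gene (exact binomial test, adjusted p = 2.3e-64). In the other quantification it had 4.78 TPM in replicate 1 and 3.80 TPM in replicate 2. The call therefore does not appear in the other quantification.

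The libraries held 35287805 counts in annotated genes in replicate 1 and 33068267 in replicate 2, with 14948 and 14684 genes at 1 TPM or more. Markers of the adrenal cortex, led by Hsd3b1 (1456 and 1424 TPM), and of chromaffin cells, led by Chga (347 and 314 TPM), were detected in 6 of 6 genes each. None of these 12 was called, but with no limit on the fold 4 cortex markers were higher in replicate 2, among them Star (572 against 824 TPM), and 4 chromaffin markers were higher in replicate 1 and 1, Pnmt, higher in replicate 2 (146 against 204 TPM). All 4 liver markers were called higher in replicate 1 (summed to 5095 TPM against 982 TPM in replicate 2), as were all 4 skeletal muscle markers (2677 against 850 TPM) and 1 of 4 red cell markers. All 4 kidney tubule markers were called higher in replicate 2 (summed to 0.79 TPM in replicate 1 against 195 TPM in replicate 2). None of the 4 brown fat markers was called, but all 4 were higher in replicate 2 with no limit on the fold (summed to 2175 TPM in replicate 1 against 2655 TPM in replicate 2). The part of these marker shifts in the differences of U1 and U2 between the libraries was not tested.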

How the data were processed

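Adrenal gland total RNA-seq was analysed in 1 group of 2 libraries, replicate 1 and replicate 2 by the labels. The authors deposited for each library a gene table with expected counts, TPM, credibility intervals of TPM (a signal range of unstated level) and posterior SDs of counts, and a transcript table of another quantification with estimated counts and TPM. Per the file headers the column names are those of RSEM and kallisto. Per the notes deposited with the files, mm10 and GENCODE M21 were used. The sources used here do not name the tools, their versions, the use of strand or the treatment of CAST/EiJ variants.

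The annotation gave symbols for all 55536 gene IDs. Unnamed snRNA genes took the U-type of their best match (blastn 2.17.0) to a gene with a U-type symbol at 80% identity or more over at least 60% of either sequence. Expected counts were rounded to whole numbers. Library sizes were scaled by TMM (edgeR 4.0.16) over annotated genes. With 1 group a quasi-likelihood test has no contrast, so an exact two-sided binomial test was run per gene (scipy 1.17.1), with Clopper-Pearson intervals (95%) and a prior count of 0.5 in log2 ratios. Sums of a U-type were adjusted together with all tested genes. The Fisher test of U1 against U2 was added after the values were seen. A count of 0 allows up to 3 counts. Intervals and limits cover counting error only. Data were simulated for replicate 1 against replicate 2 with Poisson counting error alone (18869 genes). On these, the test recovered 91% of 100 genes raised 3-fold and 93% of 100 genes lowered 3-fold, and called 0 unchanged genes. The simulation held no other spread between libraries, so its 0 calls do not carry over to the real data. The total expected count over all features was 35636846 in replicate 1 and 33378436 in replicate 2. The 26248 features with a number as ID took 1.96e-05% and 1.8e-05% of counts and were left out.

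The members and gene lists were chosen with earlier results of these data known. Named genes are every U-type sum, the 20 members with the highest mean TPM, the leading member of each U-type, called members, the 3 genes on either side of the TPM limit, the 3 highest genes and any called gene of each protein list, and the highest tissue markers. The rule also asked for the largest ratios between quantifications, which have no value since all members are at 0 in the other one. Further members, and the genes from outside the list near a named sequence, were added after their values were seen. Alternatives were other scalings (total counts, DESeq2 1.42.0 size factors, ERCC), other count and TPM limits, the other quantification and each library left out. The sequence of the U5 gene is not reported here.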

Additional observations from a re-analysis of the deposited data

How the results depend on the processing

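Of 116 alternative values, 83 were scored as the same, 32 as moved and 1 as reversed. The 83 include the sum of all members under total count scaling (exact binomial test, adjusted p = 8.4e-36, against 0.0597 with TMM). They also include the U5 log2 ratio over all annotated copies (1.22, against 0.33 over members). The other quantification gave 0 members, 0 called members and 0 TPM for every U-type, hence no log2 ratio. With U2 over U1 at 2.20 in TPM, counts gave 3.11 and counts per full length 2.67. Called members numbered 1, but 15 with no fold limit and 0 with intervals required not to overlap. Scaling by total counts turned the U2 log2 ratio to 0.0372 (adjusted p = 1.48e-06; -0.04 to -0.03 in the other scalings) moved the median of all genes to 0.07 and put the sum of all members at a log2 ratio of 0.08 (exact binomial test, adjusted p = 8.4e-36). With only protein-coding genes in the denominator, mean levels were 111385 TPM for all members, 31704 for U1, 69628 for U2, 11.2 for U5, 38.4 for U11, 89.9 for U12 and 9914 with no U-type. As CPM they were 3382 for all, 785 for U1, 2438 for U2, 0.0727 for U5, 0.511 for U11, 1.78 for U12 and 157 with no U-type. Over all annotated copies U5 had 7.06 TPM. At 10 TPM or more in both libraries, 11 U4/U6 and U5, 3 minor spliceosome, 10 assembly and 8 transcription and processing genes were detected. Without replicate 1 the list held 48 genes and without replicate 2 it held 51, against 41 with both. TPM minimums of 0.5 and 5 gave 49 and 36 genes. These shifts, and those of sums and protein counts with 1 library left out, were scored as not moved. Leaving out a library leaves no comparison between libraries. No paired analysis was possible because there was only 1 group. The values of U5, U11 and U12 rest on 2 to 65 counts per library, which limits their precision.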
